A study of Mus musculus with 27 samples.

Results

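Hearts of mouse embryos that lack 1 copy of both Nkx2-5 and Brg1 were compared with hearts of wild-type embryos. The comparison took every array titled Nkx2-5+/- Brg1+/- (n = 3) and every array titled wild type (n = 6), which makes 9 of the 27 arrays of the series, and it covered all 19935 genes with a usable probe set. The other 18 arrays held hearts lacking 1 copy of Nkx2-5 (n = 4), of Brg1 (n = 6), of Tbx5 (n = 5) or of both Tbx5 and Brg1 (n = 3). All groups came from mouse embryos at stage E11.5, from dissected hearts and from the same C57Bl/6/BLKSW mix of strains. The labels name no Cre driver and do not say which part of either gene is missing, how many hearts went into an array, or whether arrays of 1 group came from separate embryos. The p-values below therefore measure the spread between arrays, which may be technical. Outside the comparison, the arrays labelled Nkx2-5+/- replicate 3 and Tbx5+/- Brg1+/- replicate 3 had Smarca4 levels that go against their labels, and the values in Nkx2-5+/- hearts that the results turn on are given with and without the first of them.

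Nkx2-5 encodes a homeodomain transcription factor that the heart needs for the growth of its chambers and for its conduction system, and people who carry 1 damaged copy can have septal defects and conduction block. Brg1, encoded by Smarca4, is an ATPase of the BAF complex, which uses the energy of ATP to move nucleosomes and so opens or closes regulatory DNA for factors such as Nkx2-5 and Tbx5. At this stage the heart has looped, its chambers are forming, its cushions are filling with mesenchyme and the epicardium has spread over its surface. The design asks what the combined loss of 1 copy of each gene does to gene expression in that heart.

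Few genes passed the test. Of the 19935 genes, 2 were higher and 5 were lower in the compound heterozygous hearts than in wild type at an adjusted p under 0.05 (limma). The calls made up 0.0351% of the genes tested, 0.01% higher and 0.0251% lower. The lower genes were the lysozymes Lyz2 and Lyz1, the insulin-like growth factor binding proteins Igfbp2 and Igfbpl1, and Smarca4 itself. The higher genes were Orm2, which encodes an acute-phase plasma glycoprotein, and Ccdc74a. At an unadjusted p under 0.05 there were 1473 genes, 637 higher and 836 lower, against 996.75 that chance alone would give, and the median of all genes was -0.02 on the log2 scale. Every compound heterozygous array lay above every wild-type array for 283 genes (1.42%) and below every one for 510 genes (2.56%). With so few arrays some genes separate by chance alone, and that number was not worked out.

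The count of 7 rested on the variance shared by all 27 arrays and on single arrays. A fit to these 9 arrays alone left 0 limma calls, and 1575 genes then had an unadjusted p under 0.05. Leaving out compound heterozygous replicate 1, 2 or 3 gave 1, 0 and 8 calls, and without replicate 2 there were 879 genes at an unadjusted p under 0.05. Leaving out wild-type replicates 1, 2, 3, 4, 5 or 6 gave 1, 1, 4, 1, 1 and 7 calls, and leaving out the 2 arrays of other groups whose Smarca4 goes against their labels gave 11. Across 21 other settings Lyz2 was called in 19, Igfbpl1 in 11, Lyz1 in 10, Igfbp2 in 9, and Smarca4 and Ccdc74a in 7 each, while Orm2 was called in 7 of the 20 settings in which it was tested. None of the 7 changed direction in any of these settings.

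**Figure D1:**
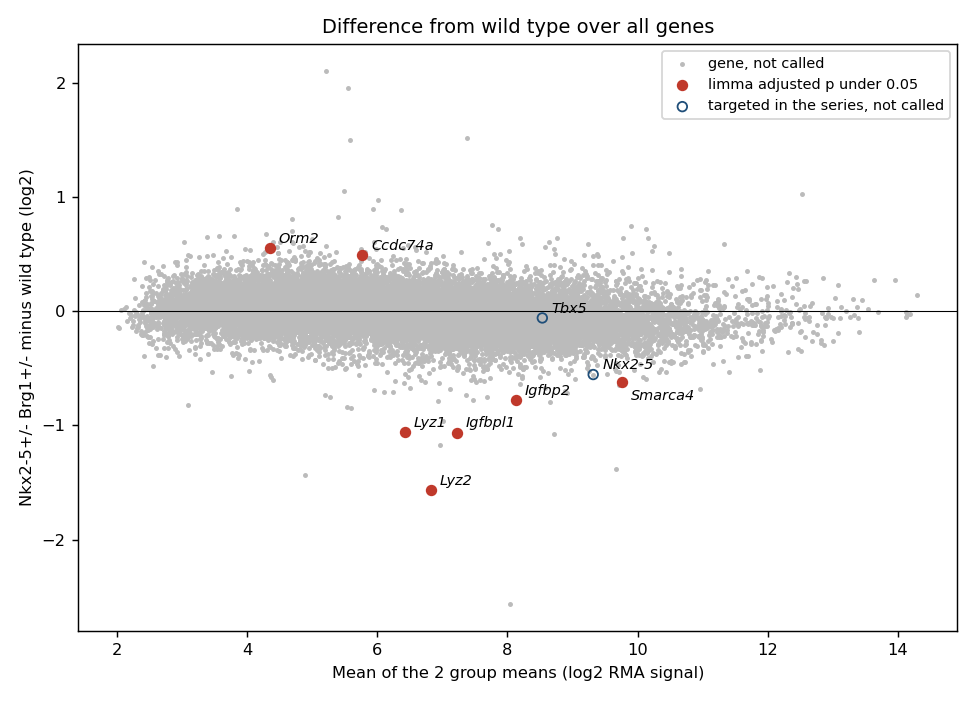
Each point is 1 of 19935 genes, placed by the mean of the compound heterozygous and wild-type group means (log2 RMA signal, horizontal) and by the difference compound heterozygous minus wild type (log2, vertical). The 7 called genes are filled in red, with Lyz2 lowest among them at -1.57, and the open circles mark Nkx2-5 at -0.55 and Tbx5 at -0.06, which did not pass the test.

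The targeted genes check the labels. Smarca4, measured by probe set 10583697, stood at log2 signals of 9.47, 9.26 and 9.60 in the compound heterozygous arrays, while the wild-type arrays had a lowest value of 9.95, a median of 10.07 and a highest value of 10.16. All compound heterozygous arrays lay below all wild-type arrays. Its level fell by 0.62 in log2 units (SE 0.12, limma adjusted p = 0.0391), which is 1.54 times lower. The mean was 9.45 ± 0.17 (SD, n = 3) in compound heterozygous hearts and 9.32 ± 0.13 (SD, n = 6) in Brg1+/- hearts, a difference of 0.12 (limma adjusted p = 0.812). Of the other BAF subunits measured, 24 in number, 6 had a difference above 0 and 18 below 0, with a median of -0.06 (0.02 after quantile normalization), and limma called 0 of them. The only member at an unadjusted p under 0.05 was Brd9, a bromodomain subunit, at -0.41 (limma adjusted p = 0.655).

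Nkx2-5, measured by probe set 10449292, had log2 signals of 9.03, 9.23 and 8.85 in the compound heterozygous arrays, and in wild type a lowest value of 9.17, a median of 9.66 and a highest value of 9.96. The highest compound heterozygous array thus lay inside the wild-type range. The difference was -0.55 (SE 0.19, limma adjusted p = 0.521), and it passed only with array weights (-0.63, limma adjusted p = 0.0077). That setting called 1156 genes and gave compound heterozygous replicates 1, 2 and 3 weights of 5.428, 0.618 and 0.756. In Nkx2-5+/- hearts the same probe set stood at -0.85 relative to wild type (limma adjusted p = 0.0070), or at -1.07 without replicate 3. Tbx5, which encodes a T-box factor that acts with Nkx2-5 and carries no deletion here, had signals of 8.56, 8.39 and 8.56, against a lowest value of 8.39, a median of 8.53 and a highest value of 8.96 in wild type. The difference of -0.06 (limma adjusted p = 0.937) changed sign without wild-type replicate 6 (0.02), the array with the highest Tbx5, and after a further quantile normalization (0.02).

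In the single heterozygotes the same 2 genes marked 1 array. The array labelled Nkx2-5+/- replicate 3 had a Smarca4 signal of 9.57 and an Nkx2-5 signal of 9.40, while replicates 1, 2 and 4 had 9.89, 10.08 and 10.06 for Smarca4 and 8.48, 8.48 and 8.63 for Nkx2-5. Both genes of that array go against its label, so values for Nkx2-5+/- hearts include it unless they are said to leave out replicate 3.

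**Figure D2:**
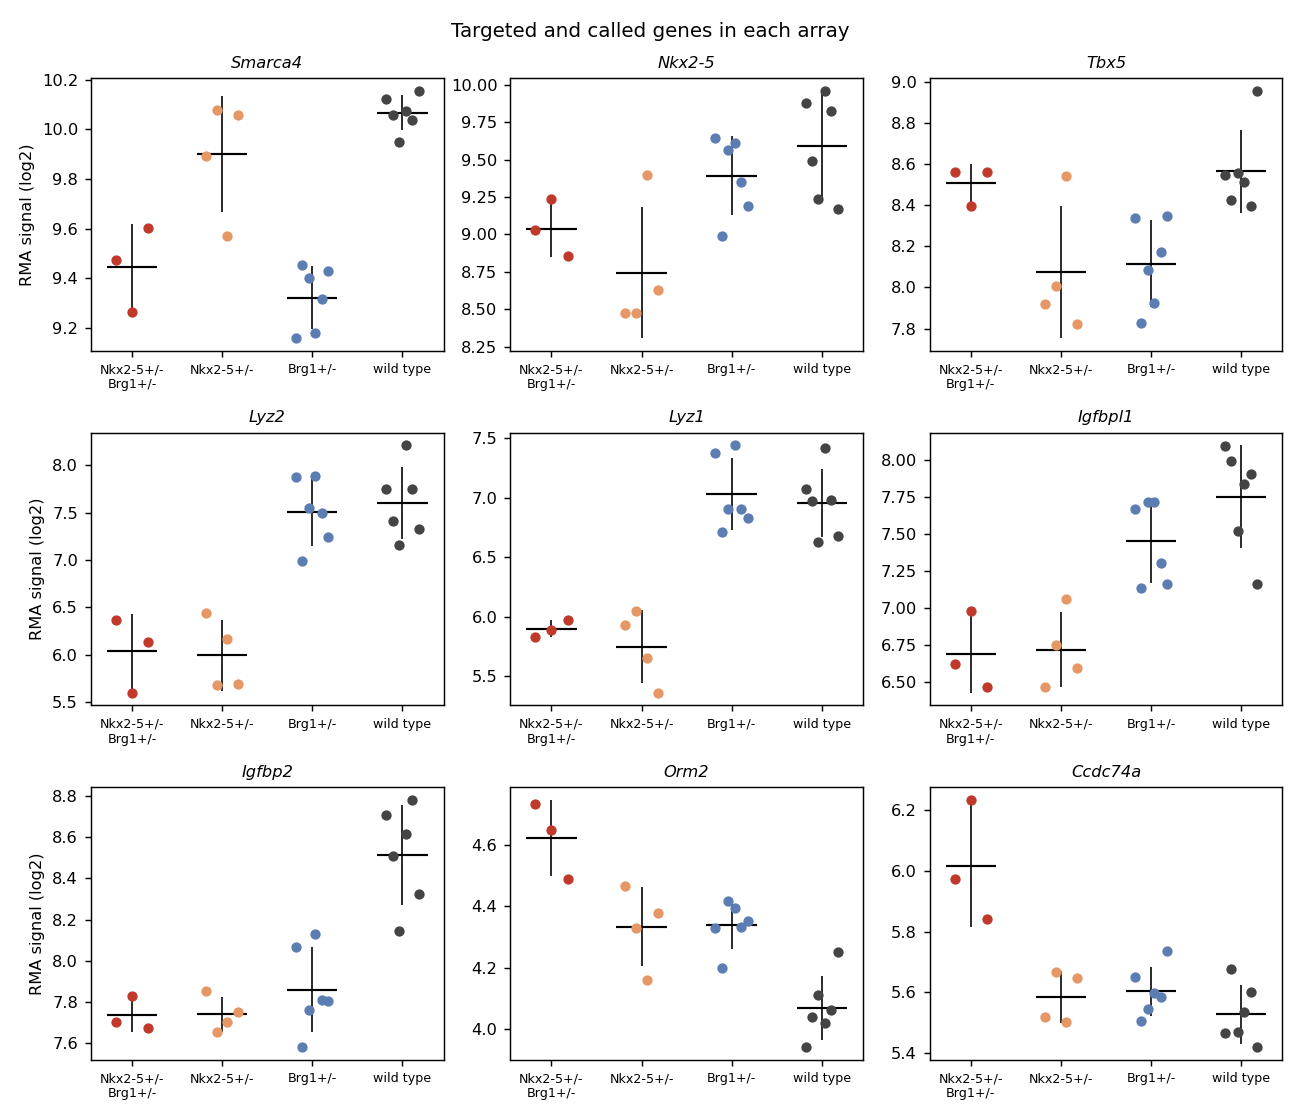
Each panel plots the log2 RMA signal of 1 gene in every array of 4 genotype groups, with a horizontal line at the group mean and a vertical line of 1 SD (n = 3 compound heterozygous, 4 Nkx2-5+/-, 6 Brg1+/- and 6 wild type). Lyz2, Lyz1 and Igfbpl1 are low in both groups that lack a copy of Nkx2-5, Igfbp2 is low in all 3 heterozygous groups, and Ccdc74a is high in the compound heterozygous arrays.

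Lyz2 and Lyz1 encode lysozyme, a secreted enzyme that cuts bacterial cell walls, with Lyz2 the form made by macrophages and Lyz1 the form known from the Paneth cells of the gut. The genes lie next to each other on chromosome 10 with 0 protein-coding genes between them. Their promoters are printed because the 2 neighbouring genes moved together and share much of this sequence. Each window runs from 250 bases before to 50 bases after the start of the gene, 5′ to 3′ along the gene's own strand, from RefSeq on build GRCm38.p6. Lyz2 is at chr10:117282223-117282522 and Lyz1 at chr10:117292819-117293118, both on the minus strand. Capitals mark a match to TNAAGTG, the motif of Nkx2-5 that was searched on both strands.
Lyz2: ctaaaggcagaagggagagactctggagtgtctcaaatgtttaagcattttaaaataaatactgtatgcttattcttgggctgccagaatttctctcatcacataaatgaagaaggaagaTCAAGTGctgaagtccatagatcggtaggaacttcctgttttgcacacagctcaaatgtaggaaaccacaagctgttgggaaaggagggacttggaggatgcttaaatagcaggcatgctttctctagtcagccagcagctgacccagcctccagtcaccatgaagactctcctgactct
Lyz1: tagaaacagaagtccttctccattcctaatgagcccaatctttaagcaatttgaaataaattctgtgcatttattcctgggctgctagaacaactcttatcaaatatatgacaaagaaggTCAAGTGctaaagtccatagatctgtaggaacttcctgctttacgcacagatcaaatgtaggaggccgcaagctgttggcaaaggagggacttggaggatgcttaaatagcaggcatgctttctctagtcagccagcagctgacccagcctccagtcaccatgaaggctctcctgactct
The motif began at base 121 in both windows, with the letters TCAAGTG, and 254 of 310 aligned columns (81.9%) were identical. It occurred in 3101 of 27025 promoters of the same length (11.47%), and in these 2 of the 6 called genes that have a promoter in the table. The match describes the letters and is no evidence of binding.

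Lyz2, probe set 10372648, had log2 signals of 6.37, 5.60 and 6.14 in the compound heterozygous arrays, against a lowest value of 7.16, a median of 7.58 and a highest value of 8.21 in wild type. The groups did not overlap. Lyz2 fell by 1.57 on the log2 scale (SE 0.22, limma adjusted p = 0.0013), which is 2.97 times lower. It lost its call with the 9 arrays alone (adjusted p = 0.0922) and without compound heterozygous replicate 2 (adjusted p = 0.0577). Lyz1, probe set 10372652, had signals of 5.83, 5.89 and 5.97, against a lowest value of 6.62, a median of 6.98 and a highest value of 7.42 in wild type. It fell by 1.06 (SE 0.19, limma adjusted p = 0.0278), or 2.09 times. Whether each probe set also picks up the transcript of the other lysozyme was not tested.

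The other macrophage and leukocyte markers did not move as far. Their list held 16 measured genes, Lyz2 among them, with a median difference of -0.18, 3 members above 0 and 13 below. Leaving out Lyz2, the 15 others ran from -0.41 to 0.20 with a median of -0.17, and their smallest limma adjusted p was 0.669. The mean signal of these 15 was 6.18, 5.95 and 6.10 in the compound heterozygous arrays, inside or just below the wild-type range of 5.96 to 6.43 with its median of 6.19. In Brg1+/- hearts the median of the 16 genes was -0.30 relative to the same wild-type arrays, and Lyz2 stood at -0.10. In Nkx2-5+/- hearts these values were -0.26 and -1.61 (-0.17 and -1.66 without replicate 3). Which cells the lysozyme RNA of a whole heart came from was not measured. Whether there were fewer macrophages or less lysozyme RNA per macrophage was not tested.

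Both lysozymes were also lower than in Brg1+/- hearts, while their differences from Nkx2-5+/- hearts lay within 1 SE of 0. Lyz2 had 6.44, 5.69, 6.17 and 5.69 in the Nkx2-5+/- arrays, and 6.99, 7.52 and 7.89 as the lowest, median and highest values in the Brg1+/- arrays. The compound heterozygous level of Lyz2 was -1.47 relative to Brg1+/- (limma adjusted p = 0.0042) and 0.04 relative to Nkx2-5+/- (SE 0.23, limma adjusted p = 0.968). For Lyz1 the same differences were -1.13 (limma adjusted p = 0.0157) and 0.15 (SE 0.20, limma adjusted p = 0.804). Without Nkx2-5+/- replicate 3 the differences from Nkx2-5+/- were 0.10 for Lyz2 (limma adjusted p = 0.877) and 0.12 for Lyz1 (limma adjusted p = 0.808). These comparisons share the compound heterozygous arrays.

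The neighbourhood of the lysozymes was measured too. Lrrc10, a heart muscle gene that encodes a leucine-rich repeat protein, has 4 protein-coding genes between it and Lyz2. It had the largest difference among the chamber genes. Its signals were 6.58, 6.31 and 6.69 in the compound heterozygous arrays, against a lowest value of 7.002, a median of 7.63 and a highest value of 7.84 in wild type, so that the groups did not overlap. The difference of -0.96 (SE 0.21) did not pass the test (limma adjusted p = 0.107), but did with the mean of the red cell genes as a covariate (adjusted p = 0.0329), without the arrays whose Smarca4 goes against their labels (adjusted p = 0.0134) and with array weights. Relative to the same wild-type arrays Lrrc10 stood at -1.06 in Nkx2-5+/- hearts (limma adjusted p = 0.0036), or at -1.33 without replicate 3. In Brg1+/- hearts it stood at -0.24 (limma adjusted p = 0.641). Of the genes between Lyz2 and Lrrc10, 3 were measured, and they ran from -0.13 to 0.25. Tph2, the enzyme that starts serotonin synthesis in neurons, lies on the same side of Lyz2 as Lrrc10 and beyond it. Between Tph2 and Lyz2 are 21 protein-coding genes. Tph2 had a low signal, of 4.18, 4.39 and 4.10, against a lowest value of 3.66, a median of 3.77 and a highest value of 3.97 in wild type. Its difference was 0.44 (SE 0.09, limma adjusted p = 0.0522).

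Insulin-like growth factors drive the growth of the embryo, and their binding proteins hold them in the extracellular fluid. Igfbp2, probe set 10347277, had log2 signals of 7.70, 7.83 and 7.67 in the compound heterozygous arrays, against a lowest value of 8.15, a median of 8.56 and a highest value of 8.78 in wild type. The groups did not overlap, and Igfbp2 fell by 0.78 (SE 0.14, limma adjusted p = 0.0278), or 1.71 times. Igfbpl1, probe set 10512721, encodes a related secreted protein, and it had signals of 6.62, 6.98 and 6.47, against a lowest value of 7.17, a median of 7.87 and a highest value of 8.10 in wild type. It fell by 1.06 (SE 0.18, limma adjusted p = 0.0278), or 2.09 times. Of the 13 measured genes of the insulin-like growth factor system, which does not include Igfbpl1, Igfbp2 was the only one called. The median was -0.01, with 6 members above 0 and 7 below. Of the neighbours of Igfbp2, Igfbp5 stood at -0.08 (limma adjusted p = 0.932) and Rpl37a at 0.285 (limma adjusted p = 0.773). Of the neighbours of Igfbpl1, Aldh1b1 stood at -0.635 (limma adjusted p = 0.628) and Stra6l at 0.08 (limma adjusted p = 0.913). Aldh1b1 had an unadjusted p under 0.05.

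The 2 binding protein genes differed in the single heterozygotes. Igfbp2 was -0.77 in Nkx2-5+/- hearts and -0.65 in Brg1+/- hearts relative to the same wild-type arrays, and Igfbpl1 was -1.03 and -0.30. Compound heterozygous hearts differed from Nkx2-5+/- hearts by -0.01 for Igfbp2 (SE 0.15, limma adjusted p = 0.993) and by -0.03 for Igfbpl1 (SE 0.20, limma adjusted p = 0.972). Without Nkx2-5+/- replicate 3 these differences were -0.02 for Igfbp2 (limma adjusted p = 0.969) and 0.09 for Igfbpl1 (limma adjusted p = 0.865), whose sign thus turned, and Nkx2-5+/- hearts stood at -0.76 and -1.15 relative to wild type. They differed from Brg1+/- hearts by -0.12 for Igfbp2 (limma adjusted p = 0.852) and by -0.76 for Igfbpl1 (limma adjusted p = 0.239).

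Each gene that rose did so by less than any of the 5 fell. Ccdc74a, which encodes a coiled-coil protein and was measured by probe set 10434089, had log2 signals of 5.97, 6.24 and 5.84 in the compound heterozygous arrays, against a lowest value of 5.42, a median of 5.50 and a highest value of 5.68 in wild type. Ccdc74a was higher in every compound heterozygous array, by 0.49 on average (SE 0.09, limma adjusted p = 0.0496, 1.40-fold). Its differences were 0.43 from Nkx2-5+/- (limma adjusted p = 0.0565, or 0.0134 without replicate 3) and 0.41 from Brg1+/- (limma adjusted p = 0.192), while the single heterozygotes stood at 0.06 and 0.08 relative to wild type. Orm2, probe set 10505451, is among the 4785 genes with a mean below log2 5. It had signals of 4.73, 4.65 and 4.49, against a lowest value of 3.94, a median of 4.05 and a highest value of 4.25 in wild type, and it rose by 0.55 (SE 0.10, limma adjusted p = 0.0391, 1.47-fold). Its paralogs Orm1 and Orm3 stood at 0.17 (limma adjusted p = 0.799) and 0.27 (limma adjusted p = 0.719). Orm2 was 0.29 above Nkx2-5+/- (limma adjusted p = 0.184) and 0.29 above Brg1+/- (limma adjusted p = 0.503), and the single heterozygotes were 0.26 and 0.27 above wild type. Without Nkx2-5+/- replicate 3 Orm2 was 0.23 above Nkx2-5+/- (limma adjusted p = 0.218), and Nkx2-5+/- hearts stood at 0.32 for Orm2 and 0.08 for Ccdc74a relative to wild type.

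The remaining genes are described by the lists of pathways and cell types. Apart from Smarca4, Lyz2 and Igfbp2, limma called 0 members of any list against wild type. Over all genes 7.39% had an unadjusted p under 0.05, 3.2% higher and 4.19% lower, and 9160 genes had a difference above 0 while 10773 had one below 0. Members of a list are not independent readings, and the lists were chosen with earlier results of these data known.

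**Figure D3:**
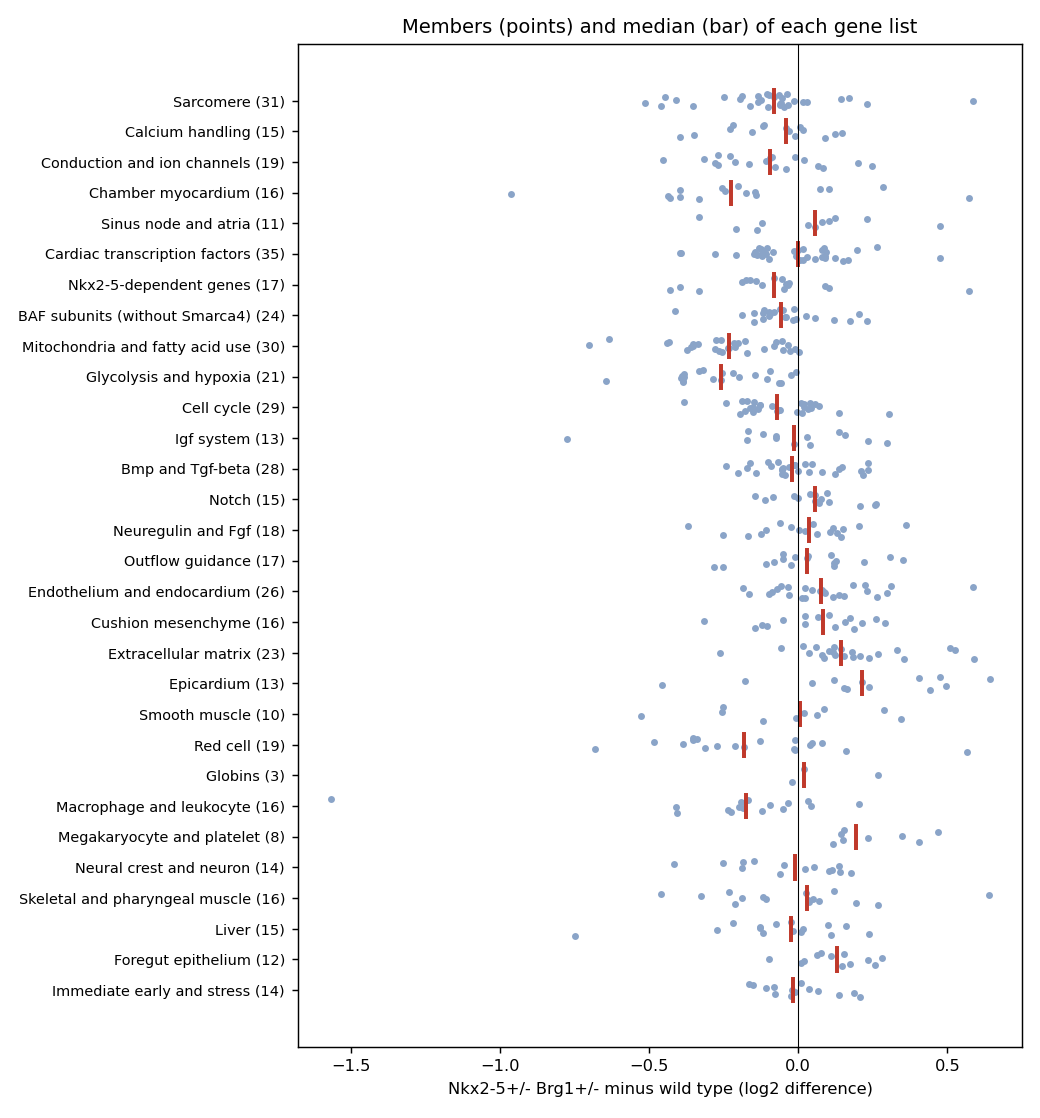
Each row is a list of genes with the number measured in brackets, each point is 1 member placed by its difference compound heterozygous minus wild type (log2), and the red bar is the list's median. The targeted genes and the sex-linked genes are not drawn, and the bars of the lists shown run from -0.26 for glycolysis and hypoxia to 0.21 for the epicardium, and the point at -1.57 is Lyz2.

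Heart muscle genes lay close to wild type. Actc1, Myh6 and Tnnt2, which encode cardiac actin, a myosin heavy chain and cardiac troponin T, had high means of 14.10 ± 0.06, 11.85 ± 0.09 and 12.98 ± 0.16 in the compound heterozygous arrays (SD, n = 3), against 14.15 ± 0.08, 12.01 ± 0.09 and 13.04 ± 0.24 in wild type (SD, n = 6). The defining muscle genes of the labelled tissue were thus present in both groups. Of 31 sarcomere genes, 6 were above 0 and 25 below, with a median of -0.08, and 1 had an unadjusted p under 0.05. This was Des, the muscle intermediate filament, at 10.11, 10.08 and 9.85, against a lowest value of 10.19, a median of 10.49 and a highest value of 10.74 in wild type. All 3 arrays lay below wild type, yet the difference of -0.45 did not pass (limma adjusted p = 0.655). Mybpc3, cardiac myosin binding protein C, stood at -0.51 (limma adjusted p = 0.683) with overlapping groups. Calcium handling genes, 15 in number, had a median of -0.04, led by the calsequestrin gene Casq2 at -0.40 (limma adjusted p = 0.709) and the phospholamban gene Pln at -0.35 (limma adjusted p = 0.728).

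Genes of the conduction system and ion channels, 19 in number, had a median of -0.10, with 5 above 0 and 14 below. The potassium channel subunits Kcne1 and Kcnq1 stood at -0.45 (limma adjusted p = 0.655) and -0.21 (limma adjusted p = 0.683). The 16 chamber genes had a median of -0.23 with 12 below 0, and 5 had an unadjusted p under 0.05, 4 lower and 1 higher. The higher one was Nppb, the B-type natriuretic peptide gene, with signals of 10.55, 10.51 and 10.55 in the compound heterozygous arrays, against a lowest value of 9.49, a median of 10.05 and a highest value of 10.20 in wild type. Its difference was 0.57 (SE 0.20, limma adjusted p = 0.538). Nppa, the A-type gene and a known target of Nkx2-5, lay on the other side of 0 at -0.33 (limma adjusted p = 0.762), with overlapping groups.

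A list of 17 genes known to need Nkx2-5 in the mouse embryo had a median of -0.08, with 3 above 0 and 14 below, and 2 at an unadjusted p under 0.05. These were Nppb, above, and Hopx, which encodes a small homeodomain protein without DNA binding, at -0.43 (limma adjusted p = 0.644). The same list had a median of -0.42 in Nkx2-5+/- hearts (-0.64 without replicate 3) and of -0.06 in Brg1+/- hearts relative to the same wild-type arrays. Cardiac transcription factors, 35 in number, had a median of 0.00, with 17 above 0 and 18 below. Irx5, which sets the gradient of repolarisation in the mouse ventricle, was below wild type in all 3 arrays, at -0.39 (limma adjusted p = 0.61). Tbx18, a factor of the epicardium and sinus horn, stood at 0.47 (limma adjusted p = 0.55). The 11 sinus and atrial genes had a median of 0.06.

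Genes of energy supply lay below 0 almost without exception. All 21 measured genes of glycolysis and hypoxia had a difference below 0, with a median of -0.26, and so did 29 of 30 genes of mitochondria and fatty acid use, with a median of -0.23. At an unadjusted p under 0.05 there were 5 lower in the first list and 10 lower in the second, and 0 higher in either. Pfkp, a phosphofructokinase of glycolysis, had signals of 9.57, 9.17 and 9.43, against a lowest value of 9.49, a median of 10.19 and a highest value of 10.37 in wild type, a difference of -0.65 (SE 0.27, limma adjusted p = 0.642). The muscle isoform Pfkm stood at -0.39 (limma adjusted p = 0.641). Uqcrc1, a core subunit of respiratory complex III, had 11.10, 11.07 and 11.10, against a lowest value of 11.14, a median of 11.56 and a highest value of 11.82 in wild type, a difference of -0.43 (limma adjusted p = 0.565). Hadha, which oxidises long-chain fatty acids, stood at -0.36 (limma adjusted p = 0.517).

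The array means of these lists put that shift beside the spread of wild type. For glycolysis and hypoxia the mean signal of the list was 9.41, 9.35 and 9.39 in the compound heterozygous arrays, against a lowest value of 9.40, a median of 9.68 and a highest value of 9.83 in wild type. For mitochondria and fatty acid use it was 9.74, 9.70 and 9.68, against 9.67, 9.98 and 10.18 as the lowest, median and highest wild-type values. The compound heterozygous arrays thus lay at the bottom of the wild-type range or just under it. Over 20 other settings the median difference of the first list ran from -0.32 to -0.20 and that of the second from -0.28 to -0.16. In Nkx2-5+/- hearts the medians of the 2 lists relative to the same wild-type arrays were -0.42 and -0.43 (-0.69 and -0.62 without replicate 3), and in Brg1+/- hearts they were -0.24 and -0.16.

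The epicardium and the extracellular matrix had the highest medians among the lists of more than 8 genes. Of 13 epicardial genes, 11 were above 0, with a median of 0.21, and 6 had an unadjusted p under 0.05, 5 higher and 1 lower. Lrrn4, a marker of the epicardial sheet, had signals of 8.89, 9.20 and 9.14, against a lowest value of 7.88, a median of 8.51 and a highest value of 8.85 in wild type, and its difference was 0.64 (SE 0.18, limma adjusted p = 0.395). Wt1, a zinc finger factor that the epicardium needs, had 9.21, 9.29 and 9.10, against a lowest value of 8.43, a median of 8.78 and a highest value of 9.07 in wild type, a difference of 0.44 (limma adjusted p = 0.521). Neither gene overlapped between the groups, but both were picked by their small p in this comparison. They were the only 2 of the 13 members that lay fully above wild type, as did 1.42% of all genes. The member on the other side was Msln, a mesothelial surface protein, at -0.46 (limma adjusted p = 0.642).

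Of 23 matrix genes, 21 were above 0, with a median of 0.14, and 2 had an unadjusted p under 0.05, both higher. These were Fmod, a collagen-binding proteoglycan, at 0.53 (limma adjusted p = 0.381), and Fbln2, which encodes the matrix protein fibulin 2, at 0.51 (limma adjusted p = 0.61). All 3 compound heterozygous arrays were above wild type for both, which were picked by their small p and were the only 2 such members of the list. The mean of the epicardial list was 9.23, 9.19 and 9.22 in the compound heterozygous arrays, against a lowest value of 8.78, a median of 9.02 and a highest value of 9.22 in wild type. For the matrix list the means were 9.21, 9.13 and 9.12, against 8.66, 8.99 and 9.22, so the compound heterozygous arrays lay in the upper part of the wild-type range or just above it. Over 20 other settings the median difference ran from 0.16 to 0.29 for the epicardium and from 0.09 to 0.28 for the matrix.

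**Figure D4:**
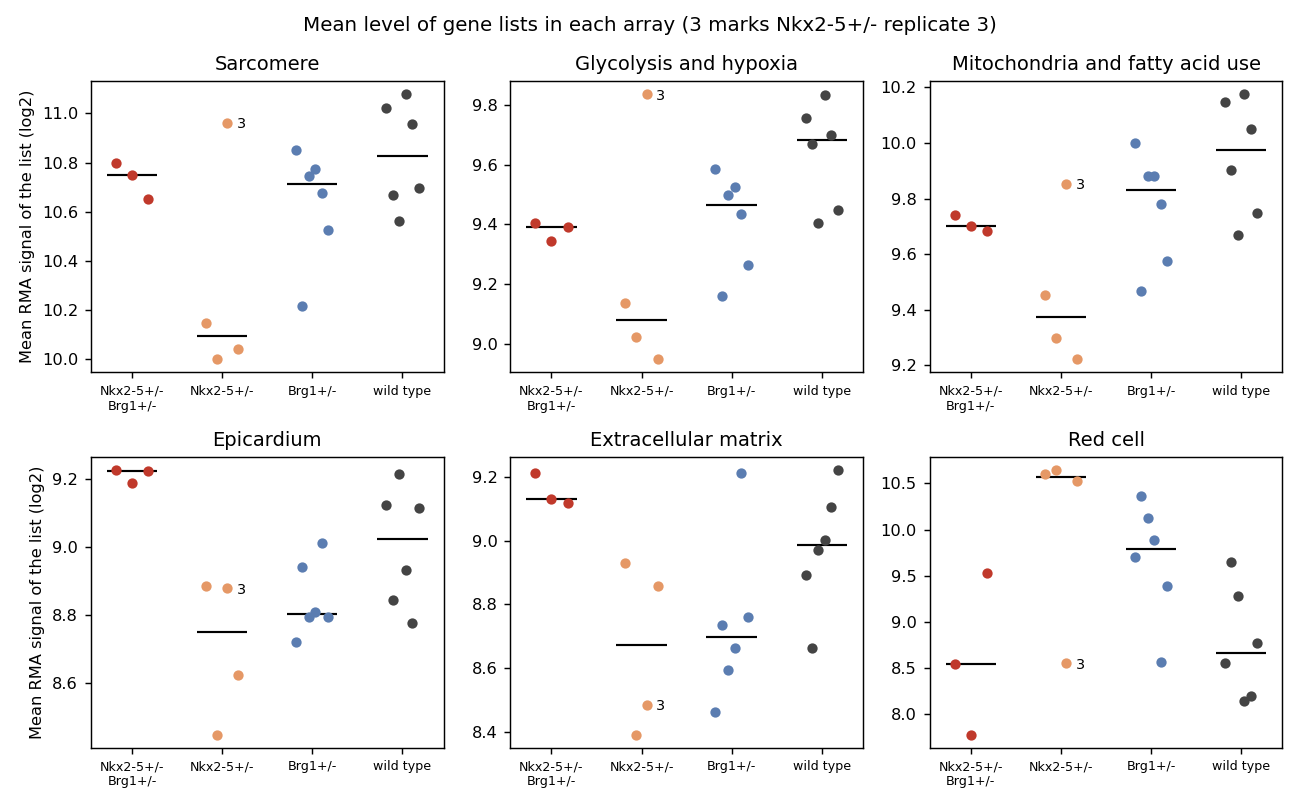
Each point is the mean log2 RMA signal of a gene list in 1 array, the horizontal line is the group median, and the digit 3 marks Nkx2-5+/- replicate 3. The compound heterozygous arrays lie close together in the lists of sarcomere, energy supply, epicardium and matrix genes, and spread from 7.78 to 9.52 in the red cell list.

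Endothelial and endocardial genes, 26 in number, had a median of 0.08, with 18 above 0. Apela, which encodes a peptide ligand of the apelin receptor, had signals of 8.42, 8.48 and 8.66, against a lowest value of 7.65, a median of 7.96 and a highest value of 8.10 in wild type, and did not overlap. Its difference was 0.59 (SE 0.14, limma adjusted p = 0.258). Klf2, a factor that responds to blood flow, stood at 0.31 (limma adjusted p = 0.613). Cushion mesenchyme genes, 16 in number, had a median of 0.08, led by Snai2, a repressor used when endocardium turns into mesenchyme, at 0.29 (limma adjusted p = 0.669), and Prrx1, a mesenchymal homeobox gene, at -0.32 (limma adjusted p = 0.726). The 10 smooth muscle genes had a median of 0.01, with the calponin gene Cnn1 at -0.53 (limma adjusted p = 0.652) and the myosin kinase gene Mylk at 0.29 (limma adjusted p = 0.699).

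Signalling lists stayed near 0. Medians were -0.02 for 28 genes of Bmp and Tgf-beta signalling, 0.06 for 15 of Notch, 0.04 for 18 of neuregulin and Fgf, and 0.03 for 17 of outflow tract guidance. Spry1, which restrains growth factor receptors, had 7.61, 7.69 and 7.51, against a lowest value of 7.11, a median of 7.22 and a highest value of 7.42 in wild type, and its difference was 0.36 (SE 0.09, limma adjusted p = 0.326). Plxna4, a semaphorin receptor, had 9.35, 9.41 and 9.36, against a lowest value of 8.49, a median of 9.11 and a highest value of 9.26 in wild type, and its difference was 0.35 (limma adjusted p = 0.616). Both, picked by their small p, were above wild type in all arrays, as were 1.42% of all genes. Fgf13, an intracellular relative of the Fgf ligands, stood at -0.37 (limma adjusted p = 0.688), the guidance ligand Slit3 at 0.31 (limma adjusted p = 0.67), the Bmp target Id1 at 0.23 (limma adjusted p = 0.684), the activin subunit gene Inhbb at 0.23 (limma adjusted p = 0.697), and the receptors Notch3 and Notch2 at 0.26 each (limma adjusted p = 0.749 and 0.789).

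Among 29 cell cycle genes the median was -0.07, and 0.01 after quantile normalization. Cdkn1b, an inhibitor of the cycle, stood at -0.39 by the brighter of its probe sets (limma adjusted p = 0.676) and at -0.06 by the other, and Ccne1, a cyclin of S phase entry, at -0.24 (limma adjusted p = 0.712). Of 14 immediate early and stress genes, which respond to handling of tissue, the median was -0.02. The transcription factor gene Fos stood at 0.21 (limma adjusted p = 0.738) and Egr1 at 0.19 (limma adjusted p = 0.747).

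Markers of blood varied between arrays of the same group. The mean of 19 red cell genes was 8.54, 7.78 and 9.52 in the compound heterozygous arrays, against a lowest value of 8.15, a median of 8.67 and a highest value of 9.65 in wild type, and the list's median difference was -0.18, or 0.23 without compound heterozygous replicate 2. Alas2, which starts haem synthesis in red cells, had 10.61, 9.77 and 11.45, against a lowest value of 10.82, a median of 11.12 and a highest value of 12 in wild type, a difference of -0.68 (limma adjusted p = 0.726). Nfe2, a factor of red cells and platelets, stood at -0.48 (limma adjusted p = 0.83). The embryonic globins Hbb-bh1 and Hbb-y stood at 0.27 (limma adjusted p = 0.858) and -0.02 (limma adjusted p = 0.965). All 8 megakaryocyte and platelet genes were above 0, with a median of 0.19 (0.62 without compound heterozygous replicate 2), and their array means were 8.26, 7.17 and 8.34, against a lowest value of 7.40, a median of 7.67 and a highest value of 7.96 in wild type. Replicate 2 was thus the lowest of all 9 arrays and replicates 1 and 3 the highest. Treml1 and Itgb3, both platelet surface proteins, stood at 0.47 (limma adjusted p = 0.655) and 0.40 (limma adjusted p = 0.748). With the red cell mean as a covariate limma again called 7 genes against wild type, 6 of them the same.

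Lists of tissues next to the heart also stayed near 0. The medians were -0.01 for 14 neural crest and neuron genes, 0.03 for 16 skeletal and pharyngeal muscle genes, -0.03 for 15 liver genes and 0.13 for 12 foregut epithelium genes. Alb, the albumin gene of liver, had 5.36, 4.75 and 4.60, against a lowest value of 4.45, a median of 4.75 and a highest value of 9.71 in wild type. Its difference of -0.75 (limma adjusted p = 0.839) was 0.07 without wild-type replicate 3, the array at 9.71. Tnnt3, a fast skeletal troponin T, had 8.44, 8.98 and 8.13, against a lowest value of 7.55, a median of 7.79 and a highest value of 8.56 in wild type, a difference of 0.64 (limma adjusted p = 0.517). Tnni2, its fast troponin I partner, stood at -0.46 (limma adjusted p = 0.644). Fabp7, a fatty acid binding protein of glia, and Erbb3, a neuregulin receptor, stood at -0.42 and -0.25. The liver apolipoprotein gene Apoh stood at -0.22, the hedgehog ligand gene Shh at 0.23 and the E-cadherin gene Cdh1 at 0.26, these 5 with limma adjusted p from 0.664 to 0.777.

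Sex-linked genes gave the largest differences without a call among the genes ranked. The ranking left out genes with predicted, clone, accession-like, olfactory or vomeronasal receptor names. The male genes Kdm5d and Uty were high in compound heterozygous replicates 1 and 3 and low in replicate 2, while in wild type they were high in replicate 3 only. Kdm5d had 7.45, 4.03 and 7.51, against a lowest value of 4.12, a median of 4.31 and a highest value of 7.53 in wild type, a difference of 1.5 (limma adjusted p = 0.731). For Uty the difference was 1.95 (limma adjusted p = 0.735). By these genes the groups differ in their mix of sexes. With the mean of the Y-linked genes as a covariate, limma called 1 gene in place of 7. Lyz2 kept its call at -1.61 (adjusted p = 0.0027), and the other 6 each had an adjusted p of 0.0913, with differences of -0.61 for Smarca4, -1.04 for Lyz1, -0.74 for Igfbp2, -1.01 for Igfbpl1, 0.50 for Orm2 and 0.51 for Ccdc74a. In all, 14 genes had a difference of at least 1 in either direction. The largest ranked one outside the sex-linked list that did not pass was Zfp979, at -1.43 (limma adjusted p = 0.591).

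The comparison with Nkx2-5+/- hearts asks what the missing copy of Brg1 adds where 1 copy of Nkx2-5 is already gone. Of 19935 genes, 7 were higher and 1 was lower in compound heterozygous than in Nkx2-5+/- hearts (limma), which is 0.0401% of those tested, 0.0351% higher and 0.00502% lower. The genes that rose were Apela, Fmod, S100a6, Cst9, Aebp1, Cd82 and Cdh3, and Arel1 fell. All 7 that rose also had a difference above 0 from wild type, from 0.25 to 0.60, although none passed that test. In Nkx2-5+/- hearts the same 7 genes stood at -0.48 to -0.26 relative to wild type (-0.52 to -0.23 without replicate 3), and Arel1 at 0.73 (0.88 without it). These comparisons share the compound heterozygous, Nkx2-5+/- and wild-type arrays between them. All 8 remained called without Nkx2-5+/- replicate 3, with limma adjusted p from 0.0011 to 0.0037. That setting called 11.6% of all genes and kept the other arrays that had picked these 8, so it is no separate check.

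Apela had 8.42, 8.48 and 8.66 in the compound heterozygous arrays, against 7.62, 7.32, 7.62 and 7.52 in the Nkx2-5+/- arrays, and rose by 1.001 (SE 0.15, limma adjusted p = 0.0071). Fmod had 8.38, 8.27 and 8.22, against 7.59, 7.12, 7.30 and 7.37 in Nkx2-5+/-, and rose by 0.94 (limma adjusted p = 0.0201). S100a6, a calcium-binding protein, had 7.17, 7.77 and 7.67, against 6.65, 6.60, 6.68 and 6.26 in Nkx2-5+/-, and rose by 0.99 (limma adjusted p = 0.0201). The groups did not overlap for any of these 3 genes, which were picked by this same difference. Cdh3, the P-cadherin gene, rose by 0.63 (limma adjusted p = 0.0252) and stood at 0.38 relative to wild type (limma adjusted p = 0.37). Aebp1, which encodes a protein of the extracellular matrix in its long form, rose by 0.78 (limma adjusted p = 0.0311), Cst9, a cystatin with a low signal, by 0.90 (limma adjusted p = 0.0311), and Cd82, a tetraspanin, by 0.71 (limma adjusted p = 0.047). Arel1, a ubiquitin ligase, had 8.40, 8.12 and 8.82, against 9.52, 9.35, 8.82 and 9.42 in Nkx2-5+/-, and fell by 0.83 (limma adjusted p = 0.0491).

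**Figure D5:**
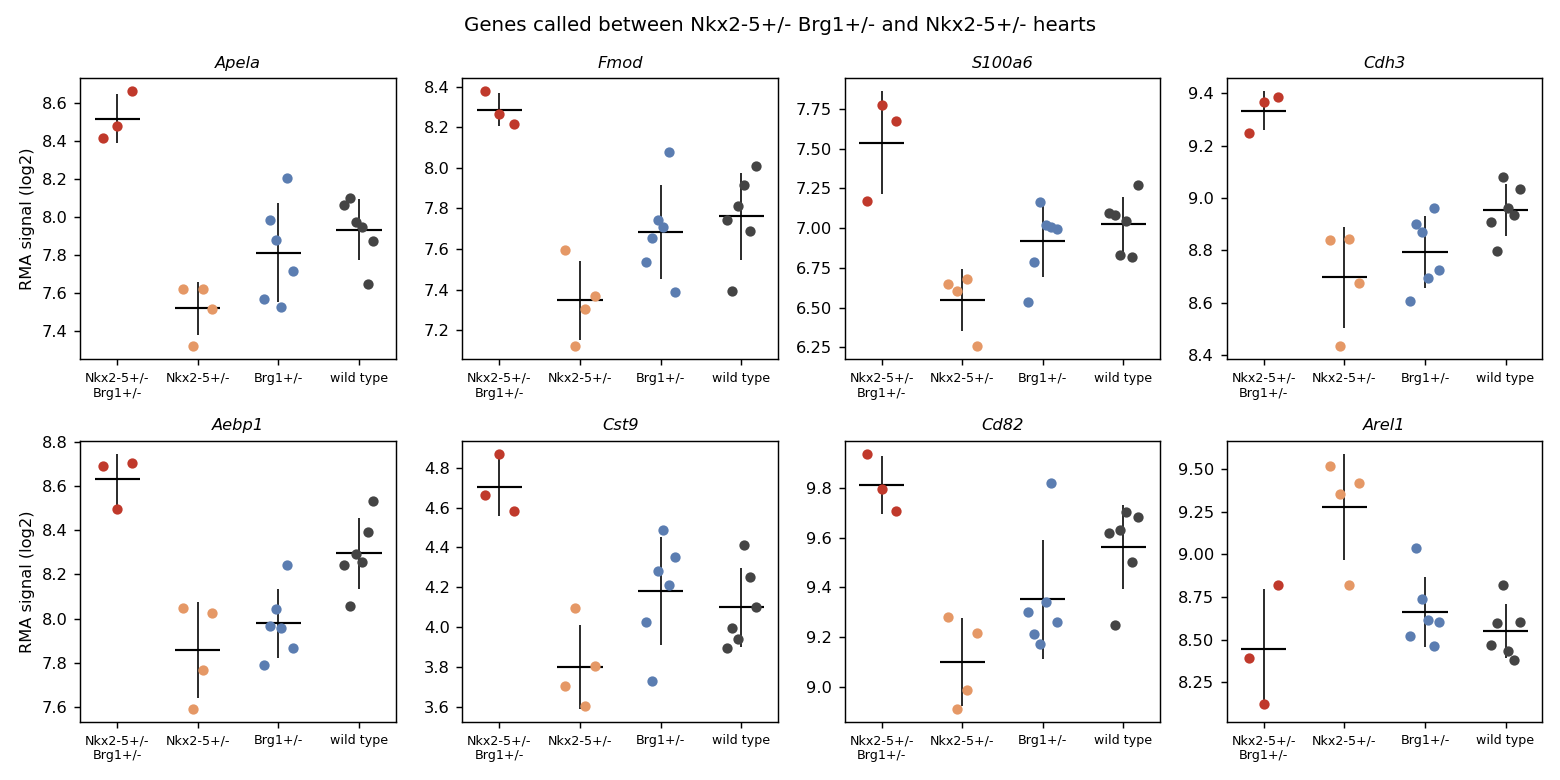
Each panel plots the log2 RMA signal of 1 of the 8 genes called between compound heterozygous and Nkx2-5+/- hearts in every array of 4 groups, with the group mean as a horizontal line and 1 SD as a vertical line. For Apela, Fmod, Cdh3, Cst9 and Cd82 the 3 compound heterozygous arrays also lie above all 6 wild-type arrays, as they do for 1.42% of all genes. These genes were picked with the same compound heterozygous arrays, and none passed the test against wild type.

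These calls rested on the arrays used. Without Nkx2-5+/- replicates 1, 2, 3 or 4 limma called 33, 2, 2308 and 4 genes, and without compound heterozygous replicates 1, 2 or 3 it called 2, 0 and 357, with 2169 genes at an unadjusted p under 0.05 where the count was 0. A fit to these 7 arrays alone made 0 calls, with 1797 genes at an unadjusted p under 0.05. With the red cell mean as a covariate it called 1. Apela was called in 17 of 19 other settings, Fmod and S100a6 in 14, Aebp1 in 12, Cdh3 in 11, Cd82 in 10 and Arel1 in 9, and Cst9 in 11 of 18.

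Without the array labelled Nkx2-5+/- replicate 3, whose targeted genes go against its label, 1356 genes were higher (6.8%) and 952 lower (4.78%) in the compound heterozygous hearts, 11.6% in all. Heart muscle genes were then higher than in the other Nkx2-5+/- hearts. Of 31 sarcomere genes 26 were called higher and 0 lower, with a median of 0.68, while with all arrays the median was 0.41, limma called 0 of them, and the array means were 10.80, 10.75 and 10.65 in compound heterozygous hearts, against 10.96 in replicate 3 and 10.002 to 10.149 in the other Nkx2-5+/- arrays. Of the 17 genes that need Nkx2-5, 12 were called higher and 0 lower, with a median of 0.58, against 0.32 with all arrays. Mybpc3 rose by 0.81 (limma adjusted p = 0.0175), Hopx by 0.72 (limma adjusted p = 0.0058), Nppb by 0.996 (limma adjusted p = 0.0027), Tbx5 by 0.59 (limma adjusted p = 0.0074) and Pln by 0.75 (limma adjusted p = 0.0261). Nkx2-5 itself stood at 0.51 (limma adjusted p = 0.0699), and Smarca4 fell by 0.56 (limma adjusted p = 0.0035). With all arrays Nkx2-5 stood at 0.30 (limma adjusted p = 0.532) and Smarca4 at -0.45 (limma adjusted p = 0.0816). Replicate 3 was singled out by its levels of these same genes, so their values without it are no separate test.

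Without that array, 10 of 13 epicardial genes were called higher and 0 lower, with a median of 0.62, and it was 0.57 with all arrays. Wt1 rose by 0.62 (limma adjusted p = 0.0156) and Tbx18 by 0.73 (limma adjusted p = 0.0143). Of 28 genes of Bmp and Tgf-beta signalling 11 were called higher, and Id1 rose by 0.46 (limma adjusted p = 0.0301). Of 19 red cell genes 17 were called lower and 0 higher, with a median of -1.98, against -1.46 with all arrays. Alas2 fell by 2.07 (limma adjusted p = 0.0024) and Nfe2 fell by 1.96 (limma adjusted p = 0.0043). The red cell means of the other Nkx2-5+/- arrays ran from 10.52 to 10.65, and replicate 3 stood at 8.55, so the red cell genes moved with the same array. With all arrays and the red cell mean as a covariate, 908 genes had an unadjusted p under 0.05 in place of 3063. The median difference from Nkx2-5+/- was then 0.09 in place of 0.41 for the sarcomere list, 0.06 in place of 0.32 for the genes that need Nkx2-5, and 0.52 in place of 0.57 for the epicardium.

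The comparison with Brg1+/- hearts asks what the missing copy of Nkx2-5 adds where 1 copy of Brg1 is already gone. It called 2 genes higher and 2 lower (limma, 0.0201% of those tested). Lyz2 and Lyz1 fell, with the values given above, and Tph2 and Cyp2c68 rose. Tph2 had 4.18, 4.39 and 4.10 in the compound heterozygous arrays, against a lowest value of 3.60, a median of 3.72 and a highest value of 3.82 in Brg1+/-, and rose by 0.50 (limma adjusted p = 0.0223). Cyp2c68, a cytochrome P450 gene, had 3.31, 2.86 and 3.17, against a lowest value of 2.22, a median of 2.29 and a highest value of 2.44 in Brg1+/-, and rose by 0.81 (limma adjusted p = 0.0428). Both, like Orm2, are genes with a mean below log2 5. The next smallest p belonged to Cdh3, at 0.54 (limma adjusted p = 0.0703). Lyz2 was called in 20 of 21 other settings, Lyz1 in 15 of 21, Tph2 in 12 of 20 and Cyp2c68 in 7 of 20. Leaving out Brg1+/- replicates 1 to 6 gave 1, 2, 3, 1, 7 and 2 calls, and leaving out compound heterozygous replicate 1, 2 or 3 gave 1, 0 and 3, with 1108 genes at an unadjusted p under 0.05 where the count was 0.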

How the data were processed

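Biotin-labelled total RNA of hearts was read on Affymetrix arrays, per the labels. The authors deposited log2 signals for 28815 probe sets in each of 27 arrays. RMA and Affymetrix Power Tools are named in the submitters' processing notes, without versions. The values, from 1.64 to 15.144 with array medians from 6.181 to 6.328, were used as deposited. Arrays give no counts, so their number sets the precision. Of the probe sets, 21780 had 1 gene symbol in the platform annotation, 1605 had several and 5430 were not listed. The brightest probe set was kept for 998 genes with several, which left 19935 genes.

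Group means over all 27 arrays were fitted with limma 3.58.1 in R 4.3.3 (21 residual and 6.71 prior degrees of freedom). Tests were two-sided, with p adjusted by the Benjamini-Hochberg method over all genes, and the threshold for a call was an adjusted p of 0.05. Every adjusted p in the text is limma's. The fit was also run on simulated data with independent noise for each gene and array. Such data lack variation shared between genes, so that run cannot vouch for the calls made here. Python 3.11.15 and matplotlib 3.10.9 drew the figures.

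The comparison, the 32 gene lists (515 of 545 symbols measured) and the rule for named genes were chosen with earlier results of these data known. The rule took the targeted genes, the called genes, up to 5 called members of each list or else the 2 with the smallest p, and for each single heterozygote the 5 largest called rises and falls or else the 5 smallest p. Cd82, Msln, Zfp979, the paralogs and neighbours of called genes and the muscle genes of the tissue check fall outside it and were chosen after their values were seen. Promoters came from a RefSeq table of build GRCm38.p6, which the labels do not name.

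Alternatives were quantile normalization, equal array medians, removal of the dimmest genes, a trended robust prior, the compared arrays alone, array weights, every probe set, probe sets averaged per gene, a replicate block, the red cell or Y-linked mean as a covariate, the arrays with contrary Smarca4 left out, and each array left out in turn. Nkx2-5+/- minus wild type values without replicate 3, and list medians against Nkx2-5+/- with the red cell covariate, were added after seeing the data.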

Additional observations from a re-analysis of the deposited data

Results flagged for a closer look

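Single wild-type arrays stood far from the other 5 for 8 genes and 3 lists, out of 102 groups of values examined, and chance alone marks about 1 in 20 groups. Wild-type replicate 3 stood out in 4 of them. Its Kdm5d signal reached 7.53, while the other wild-type arrays ran from 4.12 to 4.52, and its Uty signal was 8.33, against 3.74 to 3.97. Its Alb signal was 9.71, against 4.45 to 5.65, and its mean over the liver list was 7.47, against 5.43 to 6.03.

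Wild-type replicate 2 was low for 3 genes. It had 6.58 for Mylk, against 7.11 to 7.29 in the others, 8.30 for Id1, against 8.52 to 8.64, and 8.49 for Plxna4, against 9.01 to 9.26. Wild-type replicate 6 was high for Tbx5, at 8.96 against 8.40 to 8.56, and for the mean of the sinus and atrial list, at 8.73 against 8.44 to 8.54. Egr1 was low in wild-type replicate 4, at 6.05 against 6.26 to 6.29, and the foregut list was high in replicate 5, at 5.73 against 5.41 to 5.53.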

How the results depend on the processing

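Against wild type (7 calls) limma gave 4 after quantile normalization, 0 with the compared arrays alone, 1 with all probe sets, 1156 with array weights (compound heterozygous replicate 1 had a weight of 5.428), 1 with the Y-linked covariate and 11 without the arrays of contrary Smarca4, and 0 to 8 with an array left out. Against Nkx2-5+/- (8 calls) it gave 121 after quantile normalization, 3 with equal medians, 140 without the dimmest genes, 88 with a trended prior, 0 with the compared arrays alone, 3680 with array weights, 1 with the red cell covariate, 3 with the Y-linked covariate, 2363 without the arrays of contrary Smarca4, and 0 to 2308 with an array left out. Against Brg1+/- (4 calls) it gave 2 without the dimmest genes, 1372 with array weights, 1 with the red cell covariate, and 0 to 7 with an array left out. The cause was not tested.

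Deviations of same-numbered compound heterozygous and wild-type arrays correlated at -0.03, -0.27 and 0.28. Differently numbered arrays were not correlated for comparison, so these values cannot decide whether replicate numbers pair the arrays. With the replicate block the counts were 3 against wild type, 412 against Nkx2-5+/- and 97 against Brg1+/-.

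Of 1734 values of named genes, 1536 kept their direction and side of the threshold, 157 lost their call, 34 gained one and 7 changed sign. Of the 72 named genes 7 were called against wild type, and the others had no call to lose there. The pooled count thus says little about the calls, whose counts of settings are given gene by gene above. Against wild type Tbx5 was 0.02 after quantile normalization and Hbb-y 0.008 with array weights. With an array left out, Tbx5 ran from -0.093 to 0.019, Alb from -0.987 to 0.065, Arel1 from -0.293 to 0.057, Hbb-y from -0.085 to 0.047 and Hbb-bh1 from -0.033 to 0.538. Of 640 list medians 622 moved by less than the spread between arrays. Signal over background limits the values of Orm2, Tph2, Cyp2c68 and Cst9, whose group means lay below log2 5.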
